A study of Mus musculus with 12 samples.

Results

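The genes described here encode the scaffold proteins of the postsynaptic density and the proteins attached to it. They are the Dlg, Dlgap, Shank and Homer scaffolds, the subunits of the kinase CaMKII, several regulators of the dendritic spine, and the auxiliary subunits and adhesion partners of glutamate receptors. The pore subunits of the receptors were left out. The genes were chosen by symbol: 37 symbols were looked up by gene identifier, and all 37 were found among the 54446 identifiers of both count tables. Poly(A) RNA was sequenced from hippocampus and cerebellum of 3 mice labelled SYT14 knockout and 3 labelled wild type, which gives 12 libraries in 4 groups of 3. The series design gives the genotypes as Syt14-/- and Syt14+/+, and names mood disorder and motor coordination as the questions behind the study. Each animal gave both tissues. The sources used here do not give the strain, age or sex of the animals, how the knockout was made or which stretch of the gene it alters.

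At an excitatory synapse the postsynaptic density is a sheet of protein under the membrane of the spine. Dlg proteins hold glutamate receptors at the membrane, Dlgap proteins join them to the Shank layer, and Homer proteins join Shank to metabotropic receptors and calcium stores. CaMKII, a kinase switched on by calcium and calmodulin, changes the strength of the synapse, and auxiliary subunits set how AMPA and kainate receptors travel and open. Spiny pyramidal cells and dentate granule cells make up most excitatory targets in the hippocampus, whereas granule cells and the spiny Purkinje cells receive the excitatory input of the cerebellum.

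Libraries held 24355572 to 34971359 counts, and levels are given as counts per 1000000 library counts (CPM) scaled with TMM factors to 1 scale over all 12 libraries. All 10 markers of hippocampal pyramidal neurons were higher in wild-type hippocampus, as the labels have it. All 9 of cerebellar granule cells and all 9 of Purkinje cells were higher in wild-type cerebellum (edgeR adjusted p under 0.05). The 8 dentate granule cell markers parted the tissues less by their sum, at 518 to 619 CPM in wild-type hippocampus and 447 to 470 CPM in wild-type cerebellum. The mean of their log2(CPM + 0.1) was 5.57 to 5.84 and 2.95 to 3.12. Syt14 stood at 29.2, 28.0 and 30.6 CPM in knockout against 38.5, 38.9 and 38.1 CPM in wild-type hippocampus, and at 30.6, 30.7 and 30.3 against 33.8, 33.3 and 38.2 CPM in the cerebellum. In each tissue the knockout values lay below the wild-type values without overlap, none of them at 0, and neither difference passed the edgeR test (adjusted p = 0.686 and 0.644). Knockout cerebellum library 1 stood apart for several of the genes, as given with the cerebellum results. The column headers carry the label L1 for every hippocampus library and L4 for every cerebellum library. What that label stands for is not given, so tissue and label cannot be told apart.

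The main pattern was between the tissues. In wild-type mice 27 of the 37 genes were higher in the hippocampus, 9 were higher in the cerebellum, and Shank3 passed in neither direction (edgeR quasi-likelihood test, Benjamini-Hochberg adjusted p under 0.05 over 18128 genes). Among all genes tested, 33.1% were called higher and 33.0% lower in the hippocampus, and 66.1% were called in all. Differences of at least 2-fold were called in 18 of the genes toward the hippocampus and 5 toward the cerebellum, where 14.5% and 11.4% of all genes were called at that size. At least 16-fold higher levels in the hippocampus were called for 7 of the genes, beside 2.31% of all genes. The 3 hippocampus and 3 cerebellum values lay apart for all 37 genes, beside 70.7% of all genes. The median log2 fold change, hippocampus over cerebellum, was 0.98 for the 37 genes and -0.022 for all genes. With library totals alone in place of TMM factors the median of all genes moved to -0.16, and the share of higher genes among those called from 50.1% to 38.9%. The counts of 27 and 9 stood in that setting too. In a bulk sample fewer cells of a type and less RNA per cell cannot be told apart. The set is also of uneven weight: it took 1.59 to 1.72% of all counts in the hippocampus and 0.584 to 0.630% in the cerebellum, and without Camk2a and Ddn 1.001 to 1.06% and 0.574 to 0.620%.

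**Figure D1:**
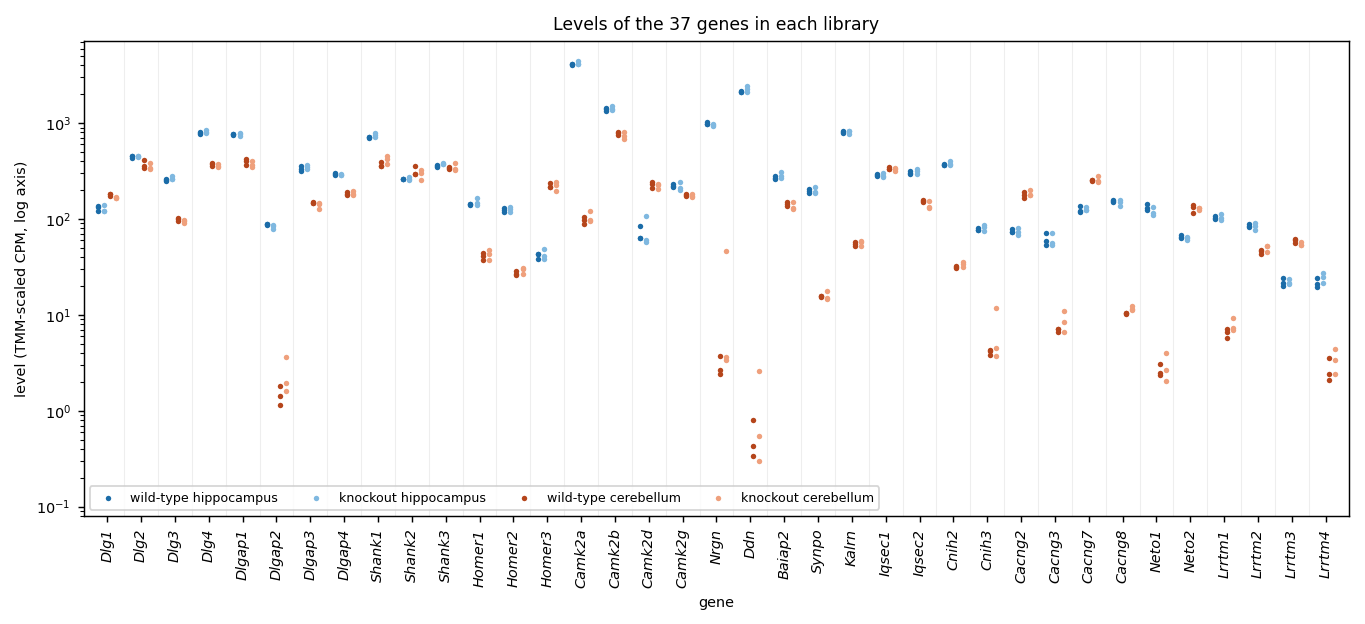
Level of each of the 37 genes in TMM-scaled CPM on a log axis, 1 point per library, coloured by tissue and genotype. Ddn, Nrgn, Dlgap2, Neto1 and Camk2a have the widest gaps between the tissues, and in knockout cerebellum the Nrgn point at 46.9 CPM lies far above the other 2.

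The Dlg genes encode membrane-associated guanylate kinases whose PDZ domains bind receptor tails. Dlg4 (PSD-95; ENSMUSG00000020886, chromosome 11, 70016942 to 70047522, plus strand, GRCm38) is the classic marker of the postsynaptic density. It stood at 781, 779 and 816 CPM in wild-type hippocampus and 380.2, 360.5 and 372 CPM in wild-type cerebellum, with 792 to 858 and 346 to 376 CPM in the knockout libraries. No hippocampus library overlapped a cerebellum library, and the fold was 2.14 (log2 1.10 ± 0.046, SE, n = 3, edgeR adjusted p = 2.12e-10). Dlg3, which serves young synapses and binds NMDA receptors, was 2.57-fold higher in the hippocampus (256 ± 5.66 against 99.9 ± 4.06 CPM, SD, n = 3). Dlg2 differed less, at 449 ± 13.1 against 371 ± 36.0 CPM (log2 0.28 ± 0.063, adjusted p = 0.00175). Dlg1, which carries AMPA receptors along the secretory path and is found outside neurons too, went the other way. It stood at 133, 122 and 138 CPM in the hippocampus and 182.9, 175 and 181 CPM in the cerebellum, 1.37-fold higher in the latter.

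Because longer messages give more counts, members of a family were compared as CPM per kilobase of merged exons, and each was given as a share of its family's sum. Dlg4 led in both tissues, with 41.7% ± 0.519 of the Dlg sum in wild-type hippocampus and 33.1% ± 0.840 in wild-type cerebellum (SD, n = 3). Dlg1 took 8.51% ± 0.440 of the hippocampal and 19.8% ± 0.463 of the cerebellar sum, and the ranges over all 6 libraries of each tissue lay apart. Shares depend on the gene model: with the mean length of coding transcripts Dlg3 took 10.1% rather than 30.6% of the hippocampal sum.

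All 4 Dlgap genes, whose products bridge Dlg and Shank proteins, were higher in the hippocampus. Dlgap2 (ENSMUSG00000047495, chromosome 8, 14095865 to 14847680, plus strand) had the widest gap of the family, at 87.8, 86.01 and 88.9 CPM in wild-type hippocampus and 1.82, 1.16 and 1.43 CPM in wild-type cerebellum. That is a 61.2-fold difference (log2 5.93 ± 0.098, edgeR adjusted p = 3.96e-14), and the knockout libraries lay at 79.2 to 85.7 and 1.63 to 3.64 CPM. The other 3 differed by 1.60-fold (Dlgap4) to 2.28-fold (Dlgap3). Dlgap1 stood at 767 ± 6.82 against 396 ± 30.2 CPM and Dlgap3, the member linked to grooming behaviour in mice, at 336 ± 20.2 against 148 ± 1.20 CPM. Dlgap3 held the largest share of the family sum in both tissues (44.6% ± 1.02 and 42.5% ± 1.22), and its shares overlapped between the tissues. With the mean length of coding transcripts Dlgap1 led instead (44.4 and 45.3%), its shares overlapped, and those of Dlgap3 lay apart (20.3 to 22.2% against 17.3 to 19.1%). Dlgap2 made up 8.57% ± 0.187 of the hippocampal and 0.310% ± 0.0627 of the cerebellar sum.

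The Shank genes, which encode the master scaffolds of the deeper layer, each differed by less than 2-fold between the tissues. Shank1 was higher in the hippocampus, at 695, 711 and 722 against 362, 360.2 and 391 CPM (log2 0.94 ± 0.048, edgeR adjusted p = 1.82e-09). Shank2 was higher in the cerebellum, at 262, 259 and 264 against 296, 293 and 358 CPM (-0.27 ± 0.069, adjusted p = 0.00402). Shank3, the gene of Phelan-McDermid syndrome in people, stood at 357, 352 and 367 against 339.6, 334 and 350.0 CPM. Its 3 hippocampus values lay above its 3 cerebellum values, yet the log2 fold change of 0.074 ± 0.044 did not pass (adjusted p = 0.151), and its sign flipped with library totals alone (-0.065). Per kilobase, Shank1 took 51.6% ± 0.454 of the family sum in the hippocampus and 34.7% ± 0.404 in the cerebellum, where Shank3 took 36.5% ± 1.26 and Shank2 28.8% ± 1.65.

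The Homer family changed its make-up most among the scaffolds. Homer1 (ENSMUSG00000007617, chromosome 13, 93299635 to 93405129, plus strand) stood at 144, 141 and 142 CPM in wild-type hippocampus and 44.1, 37.1 and 41.1 CPM in wild-type cerebellum, 3.51-fold apart (log2 1.81 ± 0.061, edgeR adjusted p = 2.47e-11). Homer2 was 4.61-fold higher in the hippocampus, at 125 ± 4.94 against 27.1 ± 1.10 CPM. Homer3 (ENSMUSG00000003573, chromosome 8, 70282827 to 70294361, plus strand), the form known from Purkinje cells, ran the opposite way at 42.7, 43.6 and 38.1 CPM in the hippocampus and 215, 217 and 239.7 CPM in the cerebellum. It was 5.38-fold higher in the cerebellum (log2 -2.43 ± 0.064, adjusted p = 2.48e-12), the largest difference toward the cerebellum among the 37 genes. In each of the 3 genes no hippocampus library overlapped a cerebellum library.

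Per kilobase, Homer1, Homer2 and Homer3 took 35.1, 29.2 and 35.6% of the Homer sum in wild-type hippocampus, a near even split. In wild-type cerebellum Homer3 took 91.3, 92.4 and 92.7% in the 3 libraries and Homer1 4.83% ± 0.473. With the mean length of coding transcripts Homer1 led in the hippocampus (52.0%), and Homer3 took 19.96% there and 83.7% in the cerebellum. Homer1 also makes a short, activity-induced form that lacks the coiled coil and loosens the lattice, and gene-level counts do not separate it from the long form. An exon of Homer3 overlaps Ddx49 on the other strand, and exons of several other members overlap genes there too, among them Ddn (B130046B21Rik) and Cnih2 (Yif1a). The strand setting of the counting is not given, so reads in such overlaps may be shared or left out.

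Sequences before an annotated start of Homer1 and Homer2 are shown because these genes share the hippocampal direction. Those of Cnih2 and Cnih3 are shown because both were over 10-fold higher in the hippocampus, as were other genes whose stretches are not shown. All come from the RefSeq promoter table of GRCm38.p6, cover up to 250 bases before that start and leave out bases that GENCODE M21 places in an exon of the gene. The Homer1 and Homer2 stretches lie inside the GENCODE span of the gene, before a start within it. Homer1 spans chr13:93303507-93303756 on the plus strand, and capitals mark TGACG or its reverse complement CGTCA, the core letters of the cyclic AMP response element. For the other 3, capitals mark the GC box GGGCGG or its reverse complement CCGCCC: Homer2 spans chr7:81706945-81707175 (minus strand), Cnih2 chr19:5098522-5098771 (minus) and Cnih3 chr1:181352378-181352627 (plus).
Homer1: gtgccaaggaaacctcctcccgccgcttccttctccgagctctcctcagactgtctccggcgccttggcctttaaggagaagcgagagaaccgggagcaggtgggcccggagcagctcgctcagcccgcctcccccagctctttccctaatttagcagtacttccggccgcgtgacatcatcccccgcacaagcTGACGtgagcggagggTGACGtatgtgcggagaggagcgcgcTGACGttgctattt
Homer2: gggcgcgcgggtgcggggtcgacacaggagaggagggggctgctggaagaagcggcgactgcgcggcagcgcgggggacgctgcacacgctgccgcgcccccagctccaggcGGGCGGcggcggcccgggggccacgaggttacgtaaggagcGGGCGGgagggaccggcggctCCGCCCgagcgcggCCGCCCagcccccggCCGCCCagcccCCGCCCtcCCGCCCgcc
Cnih2: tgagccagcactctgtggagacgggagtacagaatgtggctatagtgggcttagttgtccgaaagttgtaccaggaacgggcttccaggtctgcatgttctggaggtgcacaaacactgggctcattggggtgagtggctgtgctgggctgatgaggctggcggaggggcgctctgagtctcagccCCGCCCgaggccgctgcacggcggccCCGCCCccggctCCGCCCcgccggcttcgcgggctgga
Cnih3: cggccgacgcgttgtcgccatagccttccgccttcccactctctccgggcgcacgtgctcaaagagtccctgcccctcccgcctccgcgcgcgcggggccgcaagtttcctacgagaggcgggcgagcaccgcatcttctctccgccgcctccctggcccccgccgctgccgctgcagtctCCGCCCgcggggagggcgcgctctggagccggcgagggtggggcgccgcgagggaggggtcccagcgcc
Homer1 holds 3 copies of TGACG in this stretch, and a second annotated start of Homer1 holds 0 in its window. The printed stretch of Homer2 holds 7 GC boxes, that of Cnih2 3 and that of Cnih3 1, and the window of a second annotated start of Homer2 holds 0. Among windows not printed, those of Cacng8, Kalrn and Lrrtm1, also over 10-fold higher in the hippocampus, hold 0. Those of Homer3 and Camk2d, higher in the cerebellum, hold 4 and 3.

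Of the 37 genes, 28 had a RefSeq window of 250 bases, 43 windows in all. The GC box was found on either strand in 44.2% of these windows and in 32.7% of the 32851 windows of all genes. TGACG was found in 6.98% against 17.8%, the E-box CAGATG in 6.98% against 14.4%, and TATAAA in 11.6% against 12.4%. These motifs do not contain each other, and neighbouring copies can overlap. The median GC content was 56.8% in the windows of these genes and 52.4% in all. A match of letters is a description and not a bound site.

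CaMKII assembles into holoenzymes from alpha, beta, gamma and delta subunits, and the tissues differed in which subunit led. Camk2a (ENSMUSG00000024617, chromosome 18, 60925618 to 60988152, plus strand), the alpha subunit of forebrain spines, stood at 4139, 4082 and 4140.0 CPM in wild-type hippocampus and 97.8, 89.8 and 105 CPM in wild-type cerebellum. This is 42.3-fold (log2 5.40 ± 0.069, edgeR adjusted p = 6.40e-15), and knockout animals held 4116 to 4482 and 95.7 to 121 CPM. Camk2b, the actin-binding beta subunit, differed by 1.79-fold in the same direction (1390.0 ± 56.4 against 781 ± 27.8 CPM), and Camk2g by 1.27-fold (223 ± 9.51 against 177 ± 4.61 CPM). Camk2d was 3.25-fold higher in the cerebellum (log2 -1.70 ± 0.097, adjusted p = 5.56e-09). Its hippocampal values were 63.6, 63.6 and 85.2 CPM in wild type and 57.3, 59.7 and 107 CPM in knockout, against 206 to 245 CPM over 6 cerebellum libraries. Library 3 of each genotype was the high one in the hippocampus.

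Per kilobase, Camk2a was 552 ± 4.41 CPM per kb in wild-type hippocampus, or 74.4% ± 0.535 of the CaMKII sum, and Camk2b 20.5% ± 0.809. In wild-type cerebellum Camk2b took 62.7% ± 0.346, Camk2g 20.3% ± 0.640 and Camk2a 9.57% ± 0.399. Over all 12 libraries the share of Camk2a ran from 73.9 to 75.0% in the hippocampus and from 9.16 to 11.98% in the cerebellum.

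**Figure D2:**
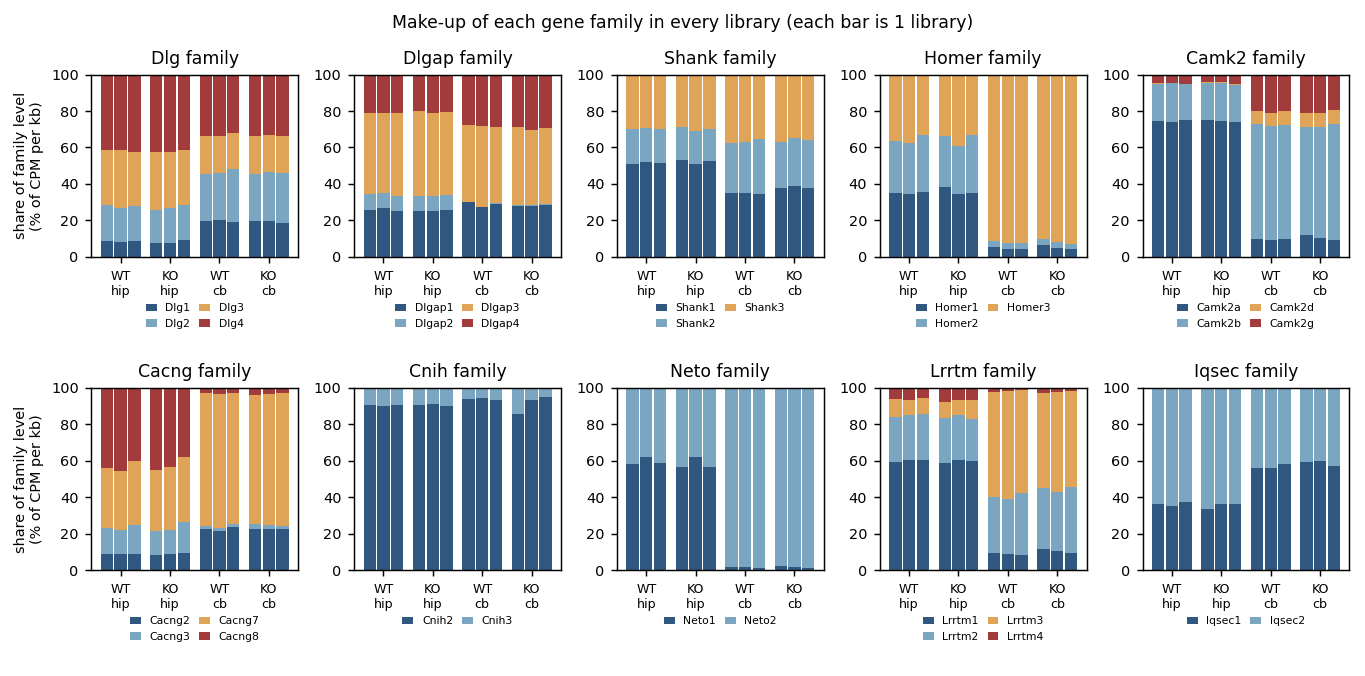
Share of each paralog in the summed level of its family (% of CPM per kb of merged exons), 1 stacked bar per library, 3 libraries for each of wild type (WT) and knockout (KO) in hippocampus (hip) and cerebellum (cb). Homer3 grows from 35.6% of the wild-type hippocampal sum to 92.1% of the cerebellar sum, and Camk2a shrinks from 74.4 to 9.57%, while bars of the same tissue look alike in both genotypes.

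Of the 7 regulators of the spine, 6 were higher in the hippocampus, and they include the widest gaps of all. Ddn (ENSMUSG00000059213, chromosome 15, 98803777 to 98809490, minus strand), encoding dendrin, whose message is carried into dendrites, stood at 2115, 2136 and 2172 CPM in wild-type hippocampus and 0.792, 0.431 and 0.334 CPM in wild-type cerebellum. The cerebellar values rest on few counts, with 9 in the lowest library. The log2 fold change was 12.07 ± 0.12 (edgeR adjusted p = 9.98e-16), rank 3 among 18128 genes toward the hippocampus. This SE is derived from the test statistic and may be too small at such low counts. Nrgn (ENSMUSG00000053310, chromosome 9, 37544492 to 37552904, minus strand), encoding neurogranin, which holds calmodulin in resting spines, stood at 991, 976 and 1028 against 3.76, 2.64 and 2.43 CPM, a 347-fold difference (log2 8.44 ± 0.10). Both genes were thus abundant in every hippocampus library and close to absent in wild-type cerebellum.

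Kalrn, an exchange factor that switches on Rac and enlarges spines, was 14.8-fold higher in the hippocampus, at 804, 824 and 799 against 52.6, 54.8 and 57.0 CPM (log2 3.89 ± 0.052). Synpo, encoding synaptopodin of the spine apparatus, was 12.6-fold higher, at 185.5 to 204 against 15.2 to 15.7 CPM. Purkinje spines are known for smooth endoplasmic reticulum without the stacked spine apparatus. Baiap2, the membrane-bending partner of Rac and Shank, was 1.89-fold higher (270.3 ± 10.2 against 144 ± 7.46 CPM). The Arf exchange factors Iqsec1 and Iqsec2 ran in opposite directions. Iqsec2 stood at 302, 314 and 297.7 against 156, 157 and 152 CPM (log2 0.98 ± 0.044) and Iqsec1 at 285, 284 and 297 against 331, 329.8 and 349 CPM (-0.22 ± 0.045, edgeR adjusted p = 8.97e-04). Per kilobase Iqsec2 took 63.7% ± 1.11 of their hippocampal and 43.3% ± 1.23 of their cerebellar sum, and 46.3 and 27.4% with the mean length of coding transcripts.

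Among the AMPA receptor auxiliary subunits, both cornichons and 2 of the 4 Cacng genes were higher in the hippocampus, and Cacng2 and Cacng7 were higher in the cerebellum. The cornichons Cnih2 and Cnih3 slow the closing of AMPA receptors. Cnih2 (ENSMUSG00000024873, chromosome 19, 5092868 to 5098521, minus strand) stood at 373, 363 and 363 CPM in wild-type hippocampus and 32.6, 31.3 and 30.5 CPM in wild-type cerebellum (11.7-fold, log2 3.54 ± 0.050). Cnih3 (ENSMUSG00000026514, chromosome 1, 181352628 to 181460641, plus strand) stood at 77.4, 80.0 and 77.2 against 4.31, 3.82 and 4.22 CPM (19.1-fold, log2 4.26 ± 0.070). Both were lower in the cerebellum, and the share of Cnih2 in their per-kilobase sum, 90.4% ± 0.264 and 93.9% ± 0.362, lay apart in wild type. Over all 12 libraries it overlapped only through knockout cerebellum library 1, at 85.9%. The other cerebellum libraries held 93.3 to 94.8% and the hippocampus libraries 90.05 to 90.97%.

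The Cacng genes encode transmembrane AMPA receptor regulatory proteins. Cacng8, the hippocampal type, stood at 153, 159 and 151 CPM in wild-type hippocampus and 10.4, 10.3 and 10.51 CPM in wild-type cerebellum (14.9-fold, log2 3.89 ± 0.055, edgeR adjusted p = 1.24e-14). Cacng3 was 8.92-fold higher in the hippocampus, at 59.1, 53.7 and 72.2 against 7.12, 6.65 and 7.05 CPM. Cacng2, encoding stargazin, whose loss gives the stargazer mouse its ataxia, was 2.37-fold higher in the cerebellum, at 73.3, 73.7 and 78.3 against 178, 164 and 192.2 CPM (log2 -1.24 ± 0.060). Cacng7 was 2.03-fold higher there, at 120.3, 119 and 137 against 254, 252 and 259 CPM (-1.02 ± 0.055). Per kilobase, Cacng8 took 43.1% ± 2.73 and Cacng7 33.5% ± 1.17 of the sum in the hippocampus. In the cerebellum Cacng7 took 72.7% ± 1.08, Cacng2 22.5% ± 1.13 and Cacng8 3.09% ± 0.0562.

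The kainate receptor partners split cleanly. Neto1, which also meets NMDA receptors, stood at 125, 143 and 132 CPM in wild-type hippocampus and 3.09, 2.50 and 2.37 CPM in wild-type cerebellum (51.0-fold, log2 5.67 ± 0.091, edgeR adjusted p = 3.16e-14). Neto2, the form known from cerebellar granule cells, stood at 65.7, 64.1 and 67.7 against 134, 117 and 140.5 CPM, 1.97-fold higher in the cerebellum (log2 -0.98 ± 0.066). Per kilobase Neto2 took 37.9 to 43.5% of the pair in the hippocampus libraries and 97.8 to 98.9% in the cerebellum libraries.

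The LRRTM proteins bind presynaptic neurexins across the cleft. Lrrtm1 was 16.2-fold higher in the hippocampus, at 103, 109 and 100.3 against 7.12, 6.59 and 5.71 CPM (log2 4.01 ± 0.077, edgeR adjusted p = 1.22e-13). Lrrtm4, known from dentate granule cells, was 8.16-fold higher, at 21.1, 24.1 and 19.4 against 3.56, 2.42 and 2.10 CPM, and Lrrtm2 1.87-fold (85.6 ± 3.59 against 46.0 ± 2.41 CPM). Lrrtm3 was 2.702-fold higher in the cerebellum, at 24.3, 21.3 and 20.2 against 61.7, 60.4 and 55.9 CPM (log2 -1.43 ± 0.074). The leading member per kilobase therefore differed: Lrrtm1 took 60.0% ± 0.668 of the sum in wild-type hippocampus and 8.82% ± 0.662 in wild-type cerebellum, and Lrrtm3 9.02% ± 0.844 and 57.8% ± 1.47. Exon sequence of Lrrtm2 overlaps Ctnna1 on the other strand.

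Over the 10 families, 32 paralogs have a share. For 29 of them the 6 hippocampus libraries did not overlap the 6 cerebellum libraries, and the exceptions were Dlgap3, Cnih2 and Cnih3. The overlap of both Cnih genes rested on knockout cerebellum library 1, and that of Dlgap3 on the merged-exon length. Shares within a family sum to 100, so they are not independent of each other.

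The knockout animals, which share no library with the wild-type comparison, gave the same directions. There 27 of the 37 genes were higher in the hippocampus and 8 lower, while Shank2 (-0.14 ± 0.081, edgeR adjusted p = 0.148) and Shank3 (0.14 ± 0.065, adjusted p = 0.0852) did not pass. Of 18200 genes tested 64.0% were called, 32.0% in each direction, and with library totals alone the share of higher genes among those called moved from 50.05% to 38.1%. The log2 fold change had the same sign in both genotypes for 37 of 37 genes, with a median absolute difference of 0.093 and a difference under 0.25 for 30. Differences of 0.25 or more were found for Nrgn, Ddn, Dlgap2, Cnih3, Cacng3, Neto1 and Lrrtm1. For Nrgn the log2 fold change was 8.44 ± 0.10 in wild-type and 5.75 ± 0.86 in knockout animals, and for Ddn 12.07 ± 0.12 and 10.99 ± 0.42. In all 7 the knockout value was the smaller. Whether it differed from the wild-type value was tested with the interaction given last.

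**Figure D3:**
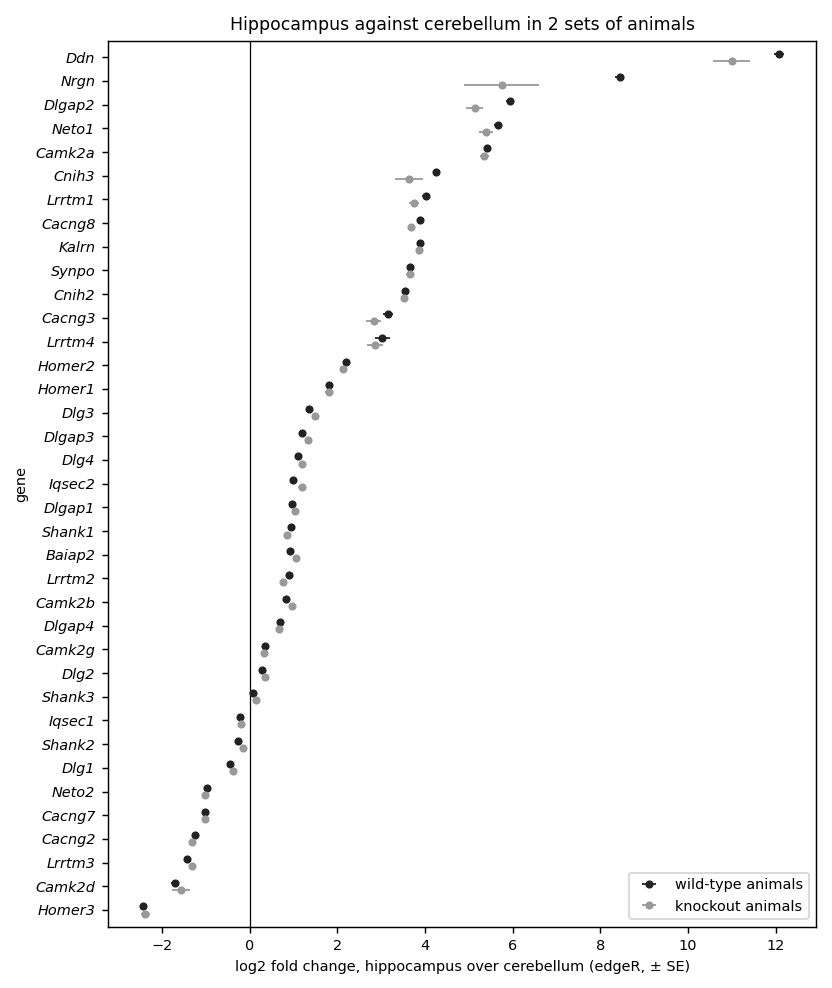
edgeR log2 fold change of hippocampus over cerebellum for each of the 37 genes (x axis), ordered by the wild-type value, with the standard error as bars and black points for wild-type and grey for knockout animals. Values run from -2.43 for Homer3 to 12.07 for Ddn in wild type, and the widest bar is that of Nrgn in knockout animals (5.75 ± 0.86).

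Other lists of synaptic genes differed in how they split between the tissues in wild-type animals. Of 37 other postsynaptic density genes tested, 32 were higher in the hippocampus and 5 lower, with a median log2 fold change of 1.34 beside -0.022 for all genes. Rgs14, a brake on plasticity in the CA2 field, had the largest value (9.03 ± 0.17), then Lrrc7, encoding densin (5.16 ± 0.17), and Lin7a (-2.34 ± 0.066) and the Arf exchange factor Psd2 (-2.32 ± 0.062) the lowest. Of 13 other AMPA receptor auxiliary and assembly genes 5 were higher and 6 lower, with a median of -0.087. Shisa7 (3.61 ± 0.065) and Gsg1l (1.04 ± 0.12) led toward the hippocampus, and Shisa8 (-5.10 ± 0.12) and Cacng5 (-2.20 ± 0.090) toward the cerebellum.

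Of the 18 pore subunits of ionotropic glutamate receptors 11 were higher in the hippocampus and 7 in the cerebellum. Grin2b (4.87 ± 0.073) and Grin2a (2.19 ± 0.067) of the NMDA receptor led on the hippocampal side. Grin3b (-3.37 ± 0.47), at 0.157 ± 0.142 against 1.65 ± 0.333 CPM, was among those higher in the cerebellum. Among 10 genes of inhibitory synapses 6 were higher and 2 lower, from Slitrk3 (2.73 ± 0.062) and Mdga1 (1.92 ± 0.089) to Inpp5f (-0.39 ± 0.049) and Igsf9b (-1.36 ± 0.051). Of 12 activity-induced genes 11 were higher, led by Egr2 (6.78 ± 0.77) and Fosb (2.98 ± 0.34), and Fos was lower (-0.94 ± 0.38, edgeR adjusted p = 0.0458). In both genotype comparisons edgeR called 0 genes of each of these 5 lists. An unadjusted p under 0.05 was reached in the hippocampus by 3 of the 37 other postsynaptic density genes and 4 of 12 activity-induced genes, beside 4.34% of all genes tested. In the cerebellum it was reached by 2 of 36 and 6 of 11, beside 6.77% of all genes. The other 3 lists held 0 such genes in the hippocampus and at most 1 each in the cerebellum.

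The hippocampus comparison asked whether the genes differ between knockout and wild-type mice. None passed: 0 of 37 genes were called by edgeR, beside 0.0% of 17693 genes tested, and 0 had an unadjusted p under 0.05, beside 4.34% of all genes. DESeq2 and limma-voom called 0 of the 37 as well. Log2 fold changes, knockout over wild type, lay between -0.15 (Neto1) and 0.19 (Lrrtm4) with a median of 0.021, and their standard errors between 0.038 and 0.20. Groups did not overlap for 1 gene that lay higher in the knockout and 1 that lay lower, beside 5.13% and 4.68% of all genes.

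The 1 that lay higher was Shank3, at 378, 383 and 374 CPM in knockout and 357, 352 and 367 CPM in wild type. Its lowest knockout value exceeded its highest wild-type value by less than the range from lowest to highest value within either group. The log2 fold change was 0.081 ± 0.038 (edgeR unadjusted p = 0.0567, adjusted p = 0.995). The 1 that lay lower was Dlgap2, at 84.2, 79.2 and 85.7 against 87.8, 86.01 and 88.9 CPM (-0.075 ± 0.048). Neto1 stood at 114, 135 and 111 against 125, 143 and 132 CPM (-0.15 ± 0.074), and its groups overlapped. Lrrtm4 stood at 27.1, 25.0 and 21.5 against 21.1, 24.1 and 19.4 CPM (0.19 ± 0.10), also with overlap.

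Among the abundant members, Shank1 stood at 792, 716 and 747 against 695, 711 and 722 CPM (0.085 ± 0.043) and Ddn at 2444, 2095 and 2273 against 2115, 2136 and 2172 CPM (0.087 ± 0.049). Nrgn stood at 992, 947 and 925 against 991, 976 and 1028 CPM (-0.062 ± 0.040) and Homer1 at 166, 147 and 141 against 144, 141 and 142 CPM (0.087 ± 0.057). In Shank1, Ddn and Homer1 the highest value was that of knockout library 1. That library was the highest of the 6 for 18 of the 37 genes, and the share over all genes was not counted. It was the highest for 7 of 8 dentate granule cell markers, whose summed level was 645 CPM there and 504 to 619 CPM in the others. It was also the highest for 4 of 10 pyramidal and 4 of 9 Purkinje cell markers. The part of any such cells in the result was not tested. The make-up of the families differed between genotypes by at most 1.42 percentage points. Groups lay apart for 2 of the 32 shares, those of Dlgap2 and Shank2, and shares were not tested.

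In the cerebellum, too, 0 of the 37 genes passed, beside 0.0113% of 17733 genes tested (2 genes, both outside the set). An unadjusted edgeR p under 0.05 was reached by 5 of the 37, beside 6.77% of all genes. These were Nrgn, Dlg1, Iqsec2, Shank1 and Dlgap2, with adjusted p from 0.691 to 0.723. DESeq2 and limma-voom called 0 of the 37, and edgeR without a filter on low counts called Nrgn and Cnih3 higher. Groups lay apart for Cacng8, higher in the knockout, beside 6.48% of all genes, and for Dlg1, lower, beside 5.4%.

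Dlg1 stood at 169, 167 and 166 CPM in knockout and 182.9, 175 and 181 CPM in wild-type cerebellum, a log2 fold change of -0.10 ± 0.040. Iqsec2 stood at 135, 130.2 and 153 against 156, 157 and 152 CPM (-0.15 ± 0.059), with knockout library 3 inside the wild-type range. Shank1 stood at 376, 421 and 454 against 362, 360.2 and 391 CPM (0.17 ± 0.067), with knockout library 1 inside that range. Within the Shank family the shares lay apart: Shank1 took 37.8, 38.6 and 37.6% in knockout and 34.8, 35.0 and 34.2% in wild-type libraries, and Shank2 25.1, 26.8 and 26.3% against 27.8, 27.8 and 30.7%. Groups also lay apart for the shares of Dlgap4, Lrrtm1 and Lrrtm3, which makes 5 of the 32 shares. The Lrrtm3 share was 53.2% ± 1.23 against 57.8% ± 1.47, the largest genotype difference of a share in this tissue (4.59 percentage points). These shares were not tested, and those of the same family are not independent. How many shares would lie apart without a genotype difference was not counted, so they cannot be read as genotype effects.

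**Figure D4:**
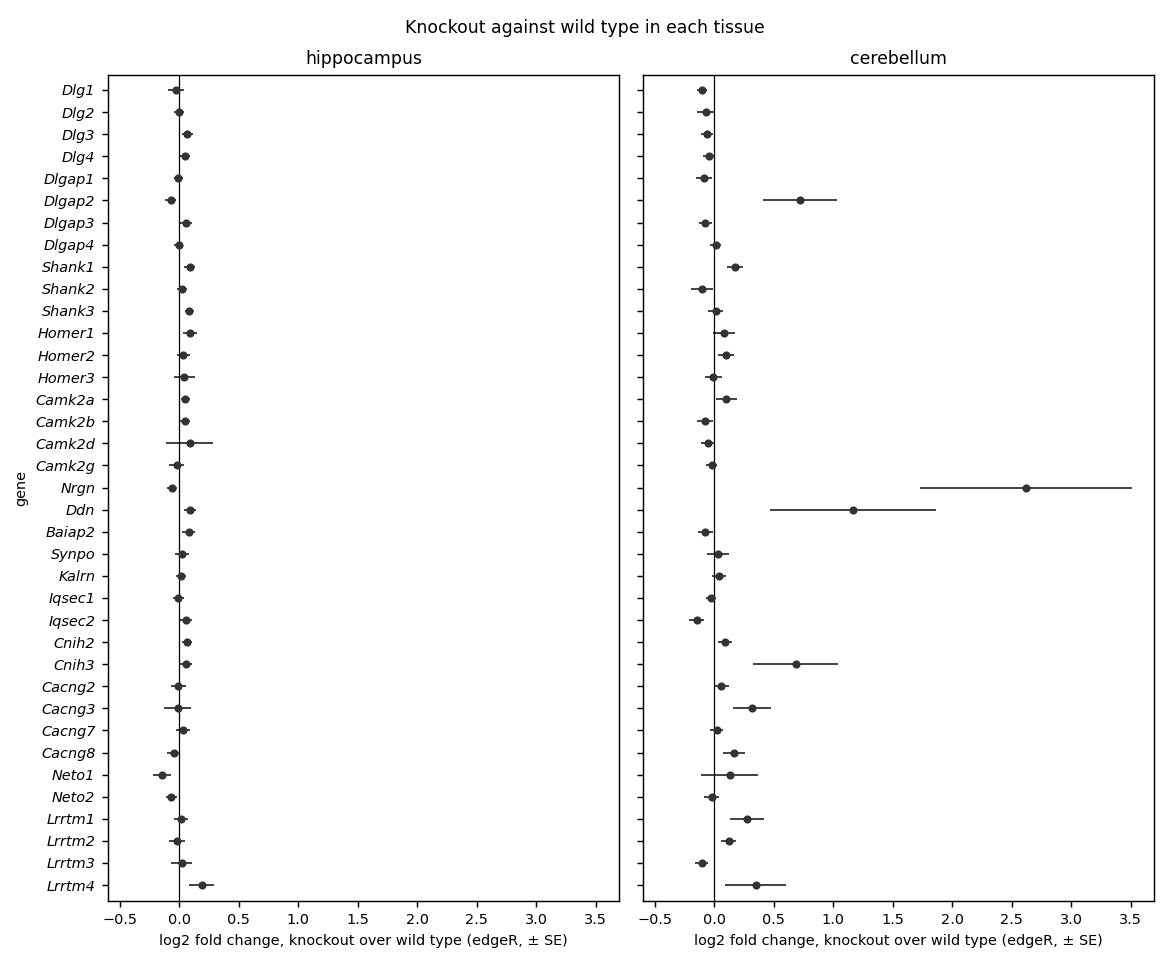
edgeR log2 fold change of knockout over wild type for the 37 genes in hippocampus (left) and cerebellum (right), points with standard error bars, n = 3 per group. The hippocampal values stay between -0.15 and 0.19, and in the cerebellum Nrgn (2.62 ± 0.89), Ddn, Dlgap2 and Cnih3 have the largest values and the widest bars.

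The larger cerebellar values rested on 1 library. Nrgn stood at 46.9, 3.64 and 3.39 CPM in knockout and 3.76, 2.64 and 2.43 CPM in wild type, so that knockout library 1 alone was high. Its log2 fold change of 2.62 ± 0.89 became 0.27 ± 0.21 without that library. Cnih3 stood at 11.7, 4.53 and 3.68 against 4.31, 3.82 and 4.22 CPM, and 0.68 ± 0.36 became -0.0027. Dlgap2 stood at 3.64, 1.94 and 1.63 against 1.82, 1.16 and 1.43 CPM, and 0.72 ± 0.31 became 0.29. For Cacng3 (10.9, 8.35 and 6.70 against 7.12, 6.65 and 7.05 CPM) the value went from 0.31 ± 0.16 to 0.12, and for Lrrtm1 (9.31, 7.26 and 6.97 against 7.12, 6.59 and 5.71 CPM) from 0.28 ± 0.14 to 0.14. Without that library Dlg1 had -0.11, Iqsec2 -0.13 and Shank1 0.24.

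Knockout cerebellum library 1 was the highest of the 6 cerebellum libraries for 17 of the 37 genes, and the share over all genes was not counted. The excess over the median of the other 5 libraries was 4.39% of that animal's hippocampal level for Nrgn, 8.70% for Cnih3, 6.73% for Cacng3, 0.510% for Camk2a and 0.0893% for Ddn. Camk2a stood at 121 CPM there against 89.8 to 105 CPM in the other 5, and Ddn at 2.61 against 0.299 to 0.792 CPM. The 10 pyramidal neuron markers summed to 78.4 CPM in library 1, the highest of the 6, to 69.3 and 72.7 CPM in the other knockout libraries and to 65.3 to 73.1 CPM in wild type. Library 1 was the highest for 3 of the 10, knockout libraries 2 and 3 for 2 and 1, and wild-type libraries 1 to 3 for 2, 0 and 2.

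Markers of other brain regions were measured beside these values. Tcf7l2, a transcription factor of thalamic neurons, stood at 37.1, 5.18 and 5.61 CPM in knockout and 5.26, 6.32 and 5.77 CPM in wild-type cerebellum. The 5 thalamic and habenular markers summed to 42.6 CPM in library 1, to 9.71 and 11.3 CPM in the other knockout libraries and to 10.1 to 11.1 CPM in wild type, and 2 of the 5 were highest in library 1. The sum was carried by Tcf7l2: the other 4 summed to 5.52 CPM in library 1 and to 4.43 to 5.64 CPM in the other 5 libraries. The 9 brainstem markers summed to 39.9, 54.5 and 8.20 CPM in knockout libraries 1 to 3 and to 11.1 to 16.2 CPM in wild type. The 6 striatal markers summed to 14.8 CPM in library 1, where 3 of the 6 were highest, and to 7.37 to 11.04 CPM in the other 5. The 7 interneuron markers summed to 1126 CPM in library 1 and to 1118 to 1224 CPM in the others, while the mean of their log2(CPM + 0.1) was 5.38 there and 4.37 to 4.79 in the others. The part of such cells in the Nrgn and Cnih3 values was not tested.

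**Figure D5:**
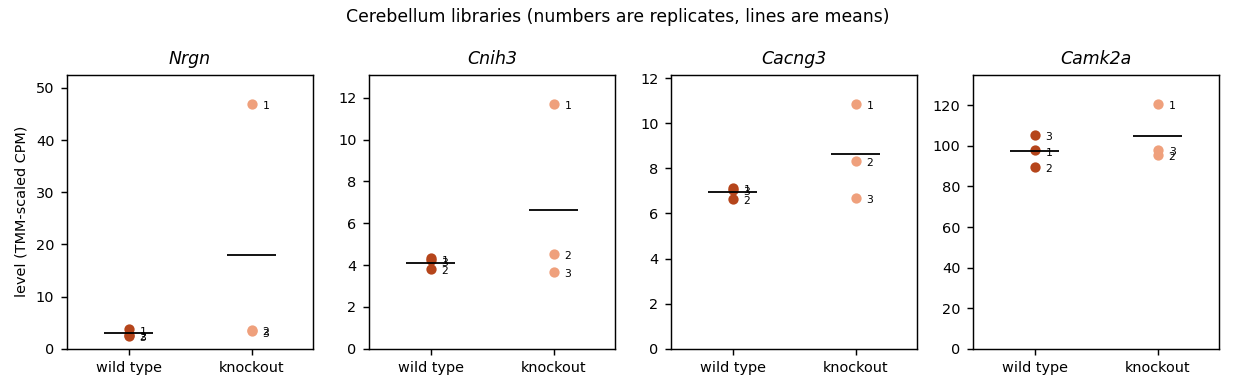
Level of Nrgn, Cnih3, Cacng3 and Camk2a (TMM-scaled CPM, axes from 0) in the 6 cerebellum libraries, with the replicate number beside each point and the group mean as a line. Knockout library 1 is the highest point in each panel, at 46.9 CPM for Nrgn where the other 5 lie between 2.43 and 3.76.

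The difference of the genotype effect between the tissues, hippocampus minus cerebellum, was tested as an interaction over all 12 libraries. It passed for 0 of the 37 genes, beside 0.0105% of 19027 genes tested, and 4 of the 37 had an unadjusted edgeR p under 0.05, beside 5.34% of all genes. These were Dlgap2 (-0.80 ± 0.27, adjusted p = 0.896), Nrgn (-2.68 ± 0.95, 0.897), Cacng8 (-0.21 ± 0.090, 0.918) and Iqsec2 (0.20 ± 0.088, 0.918). Next came Lrrtm1 (-0.27 ± 0.14), Dlg3 (0.13 ± 0.070), Ddn (-1.08 ± 0.63) and Cnih3 (-0.62 ± 0.37). Without knockout cerebellum library 1 the values were -0.39 for Dlgap2, -0.35 for Nrgn, -0.17 for Cacng8, -0.13 for Lrrtm1, 0.31 for Ddn and 0.048 for Cnih3, the last 2 with the sign turned. A fit without a filter on low counts called 4 of the genes lower, which were Dlgap2, Nrgn, Ddn and Cnih3. Both genotype comparisons and the tissue comparisons use the same libraries, so these values are not independent of those above.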

How the data were processed

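Poly(A) RNA of 12 libraries (6 mice, hippocampus and cerebellum, 3 libraries per group) was read as 1 deposited table of raw counts per gene for each tissue. The authors deposited whole-number counts that had not been scaled. The submitters' processing notes name featureCounts 2.0.3, STAR 2.7.10 and Trimmomatic 0.39, with mm10 and GRCm38 as builds. Libraries were made strand-specific with dUTP, per the labels' protocols. The counting's strand setting and annotation release: not given in the sources used here. Identifiers were matched to GENCODE M21 (54409 of 54446).

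Tests used edgeR 4.0.16 (R 4.3.3): filterByExpr (minimum count 10, minimum total 15), TMM factors, the two-sided quasi-likelihood test and Benjamini-Hochberg adjustment over all genes tested, called under 0.05. Each genotype comparison was fitted within its tissue, each tissue comparison within its genotype, and the interaction over all 12 libraries. All 37 genes passed the filter in every comparison. The SE is the size of the log2 fold change over the square root of F. It is derived from the test statistic, and for wide gaps with few counts in the lower tissue it may be too small. Family shares were described without a test. DESeq2 1.42.0, limma-voom (limma 3.58.1), RLE size factors, library totals alone, no filter, blocks, a fit of all libraries and leaving out each library were the alternatives. Tables and figures were made with Python 3.11.15, pandas 2.3.3, numpy 2.4.6 and matplotlib 3.10.9. The fits were also run on simulated counts. In each run 200 genes drawn at random were changed, 50 each by 1.25, 1.5, 2 and 4-fold. Of the 50 genes changed 1.25-fold, 19 were called in the hippocampus genotype comparison, 11 in the cerebellum and 2 in the interaction. False calls among the unchanged genes were 10, 16 and 5. Small genotype differences would thus mostly be missed. The larger changes in the same run ease the adjusted threshold, so these counts do not give the recovery rate for the 37 genes.

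The labels' animal numbers pair the tissues, since each animal gave both. The deviations of same-animal libraries from their group means correlated by 0.062 to 0.081 in wild type and 0.0071 to 0.048 in knockout. Libraries of 1 group were never identical, with a chi-square per gene of 4.11 to 12.7 between them. In the genotype comparisons values are given for the 8 genes of smallest p, and from each other pathway list the 2 genes of largest change in each direction among those called with at least 1 CPM. Some results under this rule are not reported here. Any other gene was chosen after its values were seen. The members and lists were chosen with earlier results of these data known.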

Additional observations from a re-analysis of the deposited data

How the results depend on the processing

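The 27 and 9 calls of the wild-type tissue comparison stood under every alternative run. In knockout animals 26 to 28 genes were called higher and 8 or 9 lower. Shank3 turned sign with library totals alone (-0.065 in wild type, -0.00449 in knockout), and its knockout value passed in the fit of all 12 libraries (0.14) and without knockout cerebellum library 3 (0.22). Shank2 passed in knockout animals with library totals alone (-0.29), without a filter (-0.16) and without knockout cerebellum library 1 (-0.24).

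In the hippocampus genotype comparison edgeR called 0 genes, DESeq2 2, the fit without a filter 77, and leaving out a library 0 to 2 (2 without knockout library 3), none of them among the 37. In the cerebellum it called 2, DESeq2 36, the fit of all 12 libraries 4 and the fit without a filter 417. Leaving out a library gave 2 to 33 (33 without knockout library 3, 4 without wild-type library 3). The unfiltered fit called 2 of the 37 higher, Nrgn (2.61) and Cnih3 (0.68). For the interaction 2 genes were called, 10 by DESeq2, 275 without a filter (4 of the 37 lower) and 2 to 44 with a library left out (44 without knockout cerebellum library 3, 4 without wild-type hippocampus library 1). Without knockout cerebellum library 1, 3 values turned sign. Over all libraries left out, the cerebellar Cnih3 value ran from -0.0027 to 0.98, its interaction from -0.92 to 0.048 and that of Ddn from -1.55 to 0.31. The cause of these shifts was not tested.

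With the animal as a block, 11948 genes were called in wild-type and 11205 in knockout tissues (11986 and 11643 without it), and the block changed no call among the 37. Replicate numbers across genotypes name different animals. A block on that number gave 2 called genes in the hippocampus and 36 in the cerebellum, 0 of the 37 in either. Same-numbered libraries across genotypes correlated by -0.0080 to 0.044 in the hippocampus and by 0.085 to 0.25 in the cerebellum. Different-numbered ones correlated by -0.026 to 0.033 and by -0.22 to 0.073. In the cerebellum every same-numbered value was thus above every different-numbered one, and the source of this was not tested. Of 64 family shares recomputed with another length or none, 46 moved by more than the spread between replicates and 0 turned direction. The lowest count of a member in a library was 9.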

Other observations

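Libraries 3 of both genotypes stood out in the hippocampus for 2 of the genes, which was noticed after the values were seen. Camk2d stood at 85.2 CPM in wild-type and 107 CPM in knockout library 3, and at 57.3 to 63.6 CPM in the other 4. Cacng3 stood at 72.2 and 72.1 CPM there, and at 53.7 to 59.1 CPM in the other 4. The 8 dentate granule cell markers summed to 518 and 504 CPM in those libraries and to 585 to 645 CPM in the other 4. The 6 striatal markers summed to 39.5 and 43.8 CPM there and to 29.3 to 35.5 CPM in the others. Broader lists were also highest there. The 8 pan-neuronal markers summed to 7144 and 6860 CPM against 6465 to 6764 CPM, and the 7 microglia markers to 325 and 316 against 279 to 294 CPM. The 10 pyramidal markers summed to 812 and 799.7 CPM there, with 754 to 803 CPM in the others, and libraries 3 were the highest for 1 and 2 of the 10. The part of such cells in these values was not tested, and the 2 libraries come from different animals that share only a replicate number.

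In both tissues the first knockout animal held the highest level for the largest number of the genes: 18 of 37 in the hippocampus and 17 of 37 in the cerebellum. Camk2a, Ddn, Homer1, Synpo, Kalrn, Cnih2, Cnih3, Cacng8 and Lrrtm4 were the highest in both. The next highest count was 7 in each tissue. How often these libraries were the highest over all genes was not counted, so the counts cannot be read as particular to the 37 genes. Over all genes past the filter, the deviations of this animal's hippocampus and cerebellum libraries from their group means correlated by 0.0071.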
